A study of Mus musculus with 12 samples.

Results

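The share of newly made RNA was compared between methanol-fixed NIH-3T3 cells and RNA converted in tubes, both after 200 µM 4-thiouridine (4sU). NIH-3T3 is an established line of mouse embryonic fibroblasts, labelled wild type, and every cell of this comparison received the same 4sU dose for 2 h. In fixed cells the 4sU was alkylated with iodoacetamide inside the methanol-fixed cells, read from the labels' protocols as at 50 °C for 30 min. In tubes it was alkylated on isolated RNA, and the labels name 37 °C and 1 h for these samples. Fixation, temperature and time therefore change together between the procedures and cannot be told apart. Each procedure had 2 libraries, A and B, so that 4 of the 12 libraries of the series entered the comparison. The other 8 are fixed cells and tubes at 800 µM 4sU and without 4sU, used here for the spread, for the level of each gene and for total RNA. A gene was kept where its count reached 100 in every one of the 4 libraries, which 6004 of 15217 genes did (39.5%). These genes held 94.9% to 95.5% of the counts of each library.

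Cells take 4sU up as an analogue of uridine and incorporate it into the RNA they transcribe while it is present. After alkylation, reverse transcription reads it as C, so reads with T-to-C changes mark new RNA. The new-to-total ratio of a gene is the estimated share of its RNA made during labelling. Stable messages such as those of ribosomal proteins keep a low ratio, while messages that decay fast, such as those of immediate early genes, are replaced within the labelling time and reach a high one.

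Library totals were 7762635 and 7510540 counts in fixed libraries A and B, against 4542666 and 5676517 in tube libraries A and B. The fixed libraries were thus the deeper ones. The median 90% posterior interval of the ratio, from the deposited 0.05 to the 0.95 quantile, was 9.52 and 9.70 percentage points wide in fixed cells, against 12.1 and 11.1 points in tubes. The summed alpha and beta parameters, the amount of evidence behind a ratio, had a median of 0.422 and 0.433 per read in fixed cells and 0.478 and 0.444 in tubes. Replicates within a procedure differed by more than counting noise (chi-square per degree of freedom 9.55 for the fixed pair and 10.2 for the tube pair). Each was counted as its own sample, although this excess does not show that they are independent. Whether A and B came from separate cultures is not stated in the labels. The p-values therefore cover only how far these samples differ from each other, and that spread may be technical. Of 13 fibroblast markers 12 passed the count minimum, and their summed level was 20614 and 21717 CPM (counts per effective library size, TMM-scaled) in fixed cells and 19395 and 20219 CPM in tubes. The summed levels of blood and immune markers were 8.02 and 10.2 CPM in fixed cells and 5.38 and 10.9 CPM in tubes, and those of neural and pluripotent markers 13.0 and 8.28 CPM against 17.1 and 10.1 CPM. Epithelial, endothelial, and muscle and fat markers each summed to at most 1.54 CPM in any of the 4 libraries.

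The median gene had a lower ratio in fixed cells, yet the very top of the range was fuller there. The median ratio over the 6004 genes was 37.1% and 36.4% in fixed cells and 41.4% and 43.9% in tubes. Both fixed libraries lay below both tube libraries, with a difference of −5.9 percentage points between the group means. On the logit scale (the natural log of the ratio over its remainder) the median was −0.542 ± 0.0205 in fixed cells and −0.295 ± 0.0742 in tubes (SD, n = 2 each), a difference of −0.247 (exact permutation test over 6 arrangements, two-sided p = 0.333, the smallest this design allows). New RNA made up 28.2% and 26.7% of all counts of these genes in fixed cells, against 33.5% and 34.9% in tubes. The 5th percentile of the ratio was 10.3% and 9.76% in fixed cells and 12.5% and 13.6% in tubes. At the 95th percentile the order was the opposite, with 100% in both fixed libraries and 92.3% and 95.3% in tubes. The interquartile range was 41.9 and 42.3 points in fixed cells against 38.4 and 40.1 points in tubes.

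**Figure D1:**
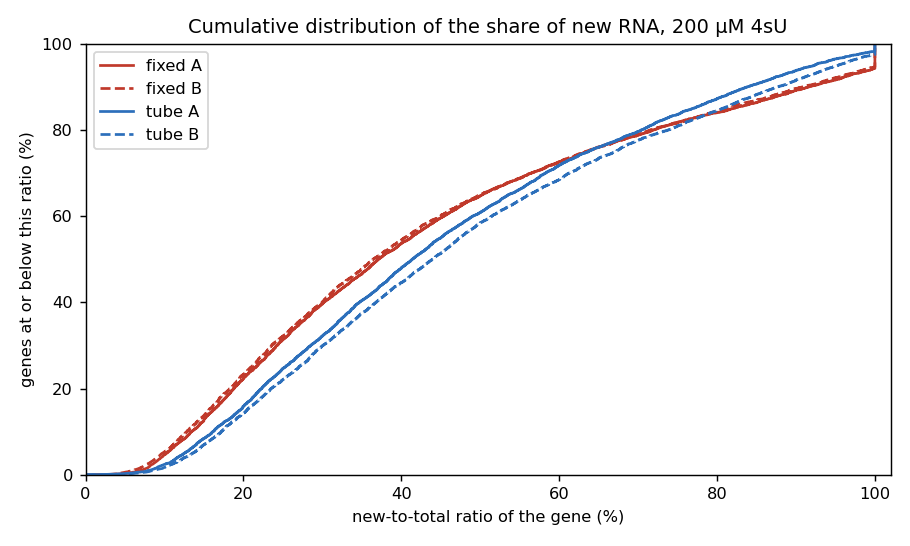
Cumulative distribution of the new-to-total ratio (x axis, %) over the 6004 genes (y axis, % of genes) in the 2 fixed (red) and 2 tube (blue) libraries at 200 µM 4sU. The fixed curves lie left of the tube curves in the lower range, cross them at ratios of about 60 to 80%, and end in a step at 100% that 344 and 321 genes make in fixed cells and 104 and 150 genes in tubes.

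More genes stood at the top of the scale in fixed cells. A ratio within 0.001 of 1, the upper bound of the test, was listed for 344 and 321 genes in fixed cells, against 104 and 150 genes in tubes. Of these, 217 genes were at this bound in both fixed libraries, 54 in both tube libraries and 36 in all 4. In both fixed libraries and neither tube library stood 120 genes, while 9 genes showed the reverse. A ratio at the bound is a posterior maximum and not a proof that no old RNA was left. The median 0.05 quantile of such genes was 94.0% and 93.5% in fixed cells and 91.9% and 93.1% in tubes.

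The difference between procedures varied with how much of a gene's RNA was new. Genes were classed by their mean ratio in the 4 libraries at 800 µM, which share no library with the comparison. Among the 1188 genes with a ratio of 10 to 20% there, the median ratio at 200 µM was 16.2% and 15.5% in fixed cells and 19.4% and 20.3% in tubes. Both fixed libraries lay below both tube libraries in 60.9% of these genes and above in 3.62%. In percentage points the median difference was deepest among the 931 genes of the 30 to 40% class, where the medians were 37.3% and 36.8% in fixed cells and 41.6% and 44.1% in tubes, a median difference per gene of −5.54 points. On the logit scale it was deepest in the class under 10%, at −0.299, against −0.232 at 30 to 40%. In points it was −1.97 at 50 to 60% and −0.02 at 60 to 70%. Among the 412 genes of 80 to 90% the medians were 95.5% and 94.5% in fixed cells and 86.3% and 90.4% in tubes, a median difference of 5.46 points. Here both fixed libraries lay above both tube libraries in 45.1% of genes and below in 6.8%. With the 280 genes above 90% the medians were 100% in both fixed libraries and 94.2% and 96.9% in tubes. Classed without fixed library A at 800 µM, which stands apart, the median differences were −5.45 points at 30 to 40%, −1.25 points at 60 to 70%, 2.9 points at 70 to 80% and 4.75 points at 80 to 90%. Over all 6004 genes, both fixed libraries lay below both tube libraries in 2465 (41.1%) and above in 786 (13.1%).

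**Figure D2:**
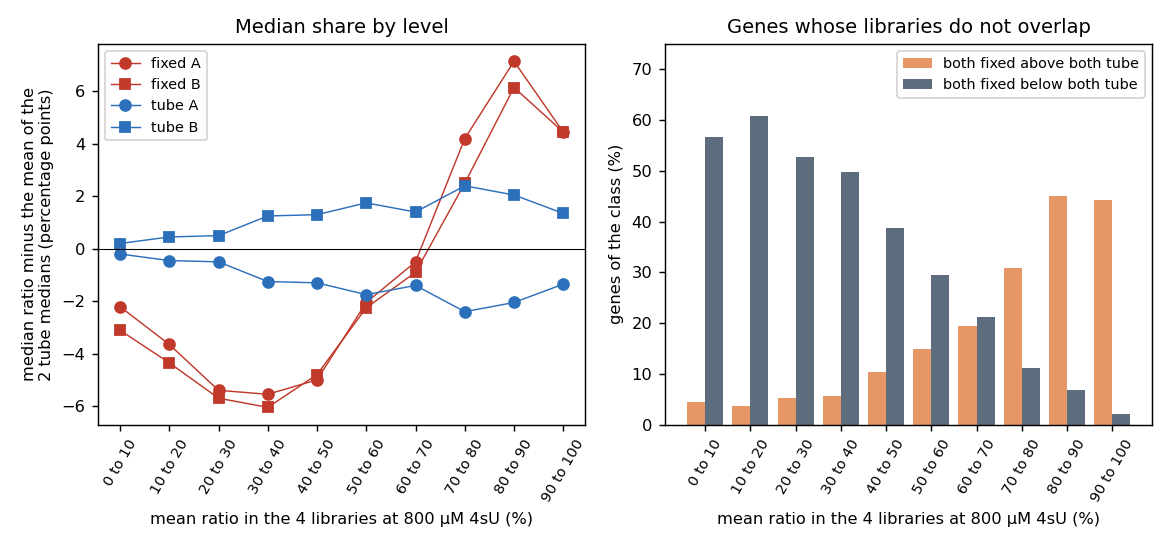
Left, median ratio of each library minus the mean of the 2 tube medians (percentage points) in classes of genes set by their mean ratio at 800 µM 4sU (x axis, %). Right, share of the genes of a class (bars, %) whose 2 fixed libraries both lie above (orange) or both below (grey) the 2 tube libraries. The fixed medians lie below both tube medians in the classes up to 50%, where 38.8% or more of the genes are below in both fixed libraries, and above both in the classes from 70%, where 30.8% or more are above.

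At 800 µM the crossing was not seen in the medians. With genes classed by their mean ratio at 200 µM, the median difference between fixed cells and tubes at 800 µM ran from −1.94 to −7.66 points over the 10 classes and was −3.62 points in the class above 90%. In that class the medians were 81.1% and 95.9% in fixed libraries A and B and 92.6% and 92.0% in tubes, so that the fixed libraries lay on either side of the tubes. Fixed library A at 800 µM also stood apart in its median over all genes, 27.2% against 33.6% in fixed library B, 37.6% and 38.2% in tubes. At the upper bound stood 53 and 165 genes in fixed libraries A and B at 800 µM, against 55 and 70 in tubes. The groups thus overlapped in this count. Both fixed libraries lay below both tube libraries in 2836 of 6004 genes (47.2%) at 800 µM and above in 290 (4.83%). The per-gene differences at the 2 doses, which share no library, had the same sign in 72.4% of the 5532 genes whose count reached 100 in all 8 libraries, with a Spearman's rho of 0.365 across genes, which are not independent replicates. The interaction of dose and procedure called 0 of 5532 genes (0.0%; limma on the logit scale with Benjamini-Hochberg (BH) adjustment at 0.05), with 269 genes at an unadjusted p under 0.05 (4.86%), of which 206 (3.72%) had the higher and 63 (1.14%) the lower difference at 200 µM.

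No single gene passed the test of the ratio. Limma on the logit scale, with 1 spread for the 4 groups at 200 and 800 µM, called 0 of 6004 genes (0.0%) after BH adjustment at 0.05, and 250 higher (4.16%) and 875 lower (14.6%) at an unadjusted p under 0.05. The median gene difference was −0.18 on the logit scale, or −3.01 points. Weighting each ratio by its posterior precision called 373 genes (6.21%), 27 higher (0.45%) and 346 lower (5.76%) in fixed cells. Fixed library A at 800 µM enters the spread: without it, a choice made after seeing the data, 75 genes were higher (1.25%) and 80 lower (1.33%). The posterior intervals give the estimation error of each ratio on its own. Those of both fixed libraries lay wholly below those of both tube libraries in 480 genes (7.99%) and wholly above in 49 (0.816%). For single pairs of libraries the intervals were apart in 11.1% of genes between fixed A and B, in 12.6% between tube A and B, and in 26.6% to 30.0% between a fixed and a tube library.

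Messages of cytosolic ribosomal proteins, which build the subunits of the translating ribosome, had the lowest list median of the ratio and, of all lists, the largest share of genes below in both fixed libraries. Over 83 genes the list median was 10.3% and 9.96% in fixed cells and 13.4% and 14.5% in tubes. Both fixed libraries lay below both tube libraries in 77 of 83 genes, against 41.1% of all genes, and above in 1. In the classes under 10% and of 10 to 20% at 800 µM, 56.6% and 60.9% of genes lay below. The intervals were apart downward in 53 and upward in 1, against 7.99% and 0.816% of all genes. In the precision-weighted fit 52 fell and 0 rose, against 5.76% and 0.45% of all genes. The unweighted fit called no gene. Interval widths and precision weights both depend on the count of a gene, and how often libraries separate may too. Neither the count nor the level of the ratio was matched between lists. At 800 µM, 77 of 83 again lay below in both fixed libraries and 1 above, against 47.2% and 4.83% of all genes. Rpl10a and Rpl39 were named because their p for the ratio was among the smallest of the list, so a wide gap follows from that choice. Rpl10a, a protein of the large subunit (chr17:28328471-28331033 on GRCm38, plus strand), had a ratio of 13.6% and 11.9% in fixed cells and 25.4% and 27.4% in tubes, and the groups did not overlap. It had 11300 and 12032 counts in fixed libraries A and B, against medians of 483 and 444.2 over all genes kept. Its logit difference was −0.89 (SE 0.18), with a limma BH-adjusted p of 0.0964 and of 5.36e-07 with precision weights. Rpl39, a small protein at the exit tunnel of the large subunit, had 8.72% and 7.41% in fixed cells and 14.9% and 14.0% in tubes. Many of these genes have processed copies in the genome, and the sources used here do not say how reads were divided among such copies.

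The counts of 4 further lists with low ratios are set beside the shares over all genes, 41.1% below and 13.1% above. These shares varied with the level of the ratio. In the classes under 10%, 10 to 20% and 20 to 30% at 800 µM, 56.6%, 60.9% and 52.8% of genes lay below. Above lay 4.53%, 3.62% and 5.23% of them. The lists were not matched to these classes. For nuclear genes of oxidative phosphorylation, the subunits of the respiratory chain and ATP synthase made outside mitochondria, the list median was 11.8% and 10.4% in fixed cells and 13.8% and 14.7% in tubes, with 46 of 75 genes below in both fixed libraries and 3 above. Proteasome subunits had 20.4% and 20.8% in fixed cells and 26.1% and 27.4% in tubes, with 25 of 34 below and 1 above. Psma1, an alpha ring subunit, was likewise named by its small p for the ratio. It had 18.7% and 19.3% in fixed cells and 37.1% and 33.2% in tubes (logit difference −0.84, SE 0.19; limma BH-adjusted p = 0.108, and 0.000543 with precision weights). Mitochondrial ribosomal proteins had medians of 26.8% and 25.4% in fixed cells and 33.9% and 31.1% in tubes, with 30 of 68 below and 6 above, near the shares over all genes. Glycolytic enzymes, with 6 of 14 below and 2 above and so also near those shares, had 15.6% and 14.0% in fixed cells and 16.2% and 19.2% in tubes. On the logit scale the list medians of fixed minus tube were −0.37 for ribosomal proteins, −0.30 for oxidative phosphorylation, −0.29 for proteasome subunits, −0.22 for mitochondrial ribosomal proteins and −0.12 for glycolysis, against −0.18 over all genes. In percentage points they were −3.81, −3.29, −4.18, −4.13 and −1.72, against −3.01 over all genes. Centred on each library's median the 5 logit medians were −0.13, −0.06, −0.05, 0.03 and 0.13, against 0.07 over all genes.

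Wide gaps in single genes were also found in other lists. The genes given here were named by the smallest p-values for the ratio in their list, so their gaps follow from that choice. Mitosis and spindle genes had a list median of 45.5% and 45.4% in fixed cells and 53.1% and 60.9% in tubes, with 15 of 23 genes below in both fixed libraries and 1 above. Anln, the actin-binding scaffold anillin of the cleavage furrow, had 34.2% and 37.6% in fixed cells against 53.1% and 62.3% in tubes. Bub1b, the checkpoint kinase BubR1, had 30.1% and 27.7% in fixed cells against 47.9% and 43.8% in tubes. Neither gene's groups overlapped. SR and hnRNP splicing factors had medians of 39.7% and 38.3% in fixed cells and 41.3% and 45.8% in tubes, with 18 of 27 below and 2 above. Hnrnph1, which binds G-rich motifs in pre-mRNA, had 44.6% and 49.7% in fixed cells against 67.7% and 67.9% in tubes (logit difference −0.86, SE 0.22; limma BH-adjusted p = 0.127, and 0.000466 with precision weights). Arf4, a small GTPase of the Golgi, had 18.4% and 16.6% in fixed cells against 33.5% and 31.5% in tubes. Lars, the cytosolic leucyl-tRNA synthetase, had 9.61% and 10.4% in fixed cells against 24.9% and 20.3% in tubes. Among 54 translation factors 31 lay below in both fixed libraries and 2 above, among 20 aminoacyl-tRNA synthetases 12 and 2, and among 34 replication and S phase genes 17 and 4. Over all genes 41.1% lay below and 13.1% above. In the classes of 20 to 30%, 30 to 40% and 40 to 50% at 800 µM, 52.8%, 49.8% and 38.8% lay below. Above lay 5.23%, 5.69% and 10.3% of them, and the lists were not matched to these classes. The logit medians of translation factors and S phase genes, −0.17 and −0.15, were near the −0.18 over all genes, and those of mitosis and splicing genes were −0.31 and −0.27. Centred on each library's median, the medians of mitosis, splicing, translation and S phase genes were −0.06, −0.02, 0.08 and 0.10, against 0.07 over all genes.

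**Figure D3:**
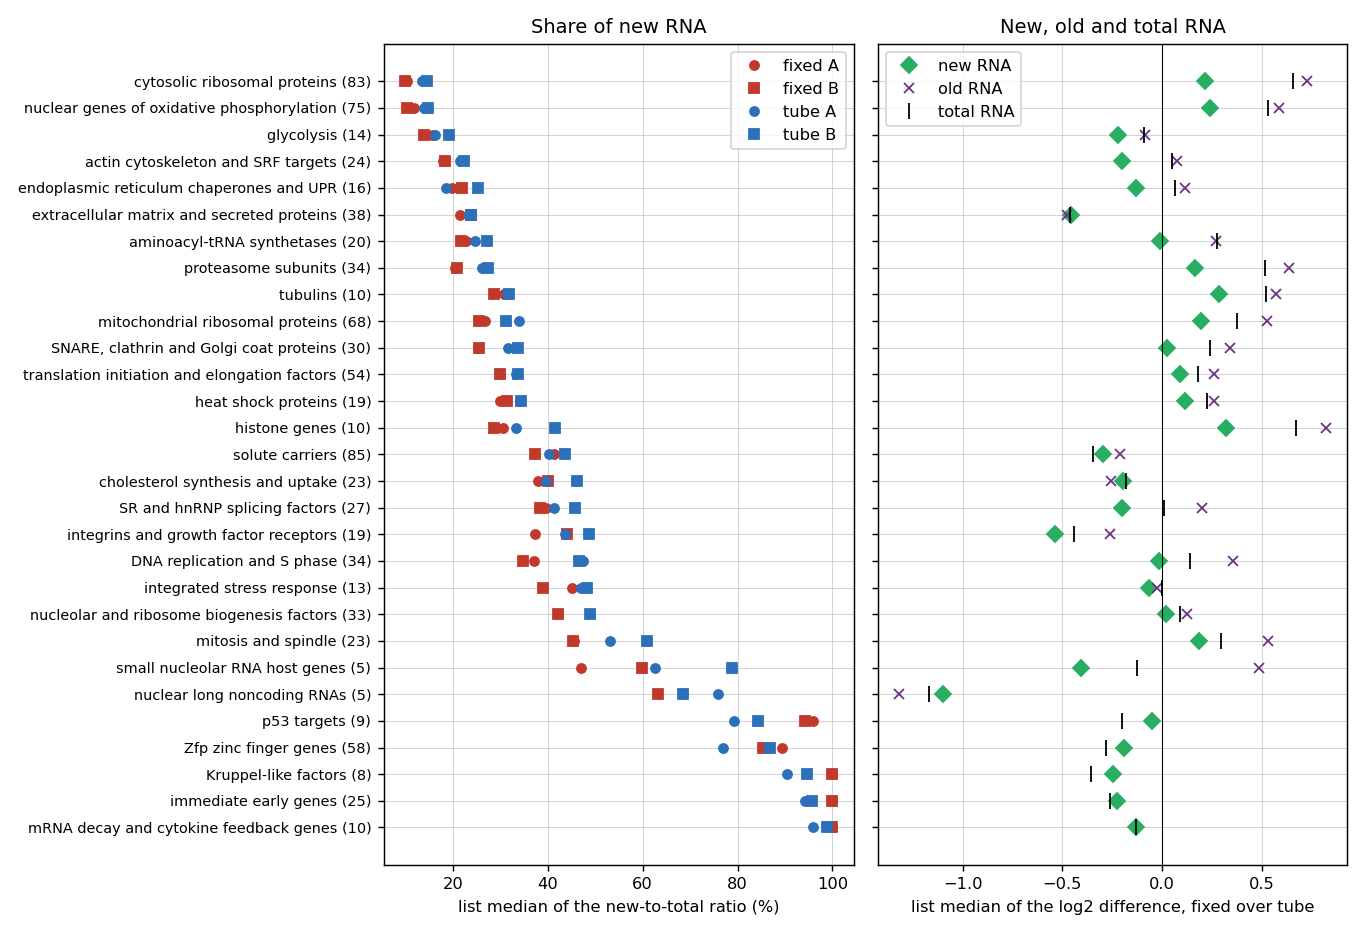
Left, median new-to-total ratio (x axis, %) of each gene list in the 2 fixed (red) and 2 tube (blue) libraries, with the number of genes in brackets. Right, list median of the log2 difference of fixed cells over tubes for new, old and total RNA, with old RNA left out of lists whose fixed median is 80% or higher. From ribosomal proteins at 10.3% and 9.96% in fixed cells to immediate early genes at 100%, fixed medians lie left of tube medians in most lists of low or middling ratio and right of them in 4 of the 5 lists with the highest ratio.

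Short-lived messages stood at the ceiling in fixed cells. Immediate early genes, the first genes transcribed after growth factor signals, had a list median of 100% in both fixed libraries and 94.2% and 95.7% in tubes. Of 25 genes, 13 were at the upper bound in both fixed libraries and 6 in both tube libraries, and 8 lay above in both fixed libraries and 2 below. Over all 6004 genes, 217 and 54 were at the bound in this way, and 13.1% lay above and 41.1% below. In the classes of 70 to 80%, 80 to 90% and above 90% at 800 µM, 30.8%, 45.1% and 44.3% of genes lay above. Below lay 11.2%, 6.8% and 2.14% of them. The lists of high ratio given here were not matched to these classes. Egr3, a zinc finger transcription factor of this class, had 100% in both fixed libraries and 79.3% and 92.9% in tubes, with 0.05 quantiles of 92.2% and 91.3% in fixed cells and 72.3% and 85.2% in tubes. Kruppel-like factors had medians of 100% in both fixed libraries and 90.4% and 94.6% in tubes, with 3 of 8 genes above and 0 below. Zfp zinc finger genes, mostly repressors of transcription, had medians of 89.4% and 85.3% in fixed cells and 76.9% and 86.8% in tubes, so that the medians of the groups overlapped. Of these 58 genes, 16 were at the bound in both fixed libraries and 2 in both tube libraries, and 19 lay above and 9 below. Among 9 p53 targets 4 lay above and 2 below. Cdkn1a, the cell cycle inhibitor p21, had 96.3% and 95.3% in fixed cells against 79.3% and 84.4% in tubes, and Ccng1, a cyclin induced by p53, had 28.8% and 25.7% in fixed cells against 34.4% and 40.9% in tubes. Within this list the 2 genes thus stood on opposite sides, the high-ratio message above and the low-ratio message below. Egr3, Cdkn1a and Ccng1 were named by their small p for the ratio. At 800 µM, 3 immediate early genes lay above and 2 below. Kruppel-like factors had 1 and 0 there, Zfp genes 3 and 16, and p53 targets 0 and 1, against 4.83% and 47.2% of all genes. The immediate early medians at 800 µM were 83.7% and 99.9% in fixed cells and 96.0% and 95.1% in tubes. Myc was listed at 100% in all 4 libraries, and Fos at 100% and 94.7% in fixed cells and at 100% and 72.4% in tubes, but both missed the count minimum in at least 1 library and were not tested.

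Ranked by p, the 10 genes with a higher ratio in fixed cells were all at 100% in both fixed libraries. They were Prr12, Adamts1, Angptl4, Mier1, Cfap43, Zfp622, Fam160b1, Trp53rka, Kdm2a and Arl4c, and none passed (limma BH-adjusted p = 0.0827 for each). Angptl4, a secreted inhibitor of lipoprotein lipase (chr17:33773750-33781830 on GRCm38, minus strand), had 100% in both fixed libraries against 80.5% and 84.1% in tubes. Its 0.05 quantiles were 92.9% and 95.4% in fixed cells and 74.8% and 79.1% in tubes. Adamts1, a secreted metalloprotease that cuts proteoglycans, had 100% in both fixed libraries against 81.3% and 78.4% in tubes. The logit difference of genes at the bound follows from the bound at which the ratio is held and has no size of its own. Both fixed values of such a gene are held at the same bound and add no spread to the fit. The p and the rank of these genes therefore depend on the bound as well. Trp53rka has a near copy in the genome, Trp53rkb, and is uncertain for that reason.

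The 10 genes with a lower ratio by the same rank were Nsmaf, Ctnnbl1, Gpr89, Rnaset2b, Eif2a, Snrpc, Dpm1, Traf7, Med27 and Aldh9a1, again with a limma BH-adjusted p of 0.0827 each. Eif2a, a factor that can bring initiator tRNA to the small ribosomal subunit (chr3:58525821-58557501 on GRCm38, plus strand), had 27.1% and 34.5% in fixed cells against 73.7% and 63.7% in tubes. Its logit difference was −1.61 (SE 0.27), with a limma BH-adjusted p of 0.00281 under precision weights. Nsmaf, an adaptor between the TNF receptor and neutral sphingomyelinase, had 18% and 14.5% in fixed cells against 39.0% and 38.0% in tubes. Traf7, a ubiquitin ligase, had 23.9% and 25.3% in fixed cells against 43.5% and 44.4% in tubes (1.27e-06 for the limma BH-adjusted p under precision weights). In these 3 genes the groups did not overlap. Rnaset2b has a near copy, Rnaset2a, and is uncertain. Of the common reference genes, the glycolytic enzyme gene Gapdh had 8.11% and 9.10% in fixed cells against 11.1% and 10.9% in tubes. The beta-actin gene Actb ran the other way, with 17.2% and 16.7% in fixed cells against 14.5% and 13.9% in tubes (logit difference 0.21, SE 0.20; limma BH-adjusted p = 0.587, and 0.0187 with precision weights).

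**Figure D4:**
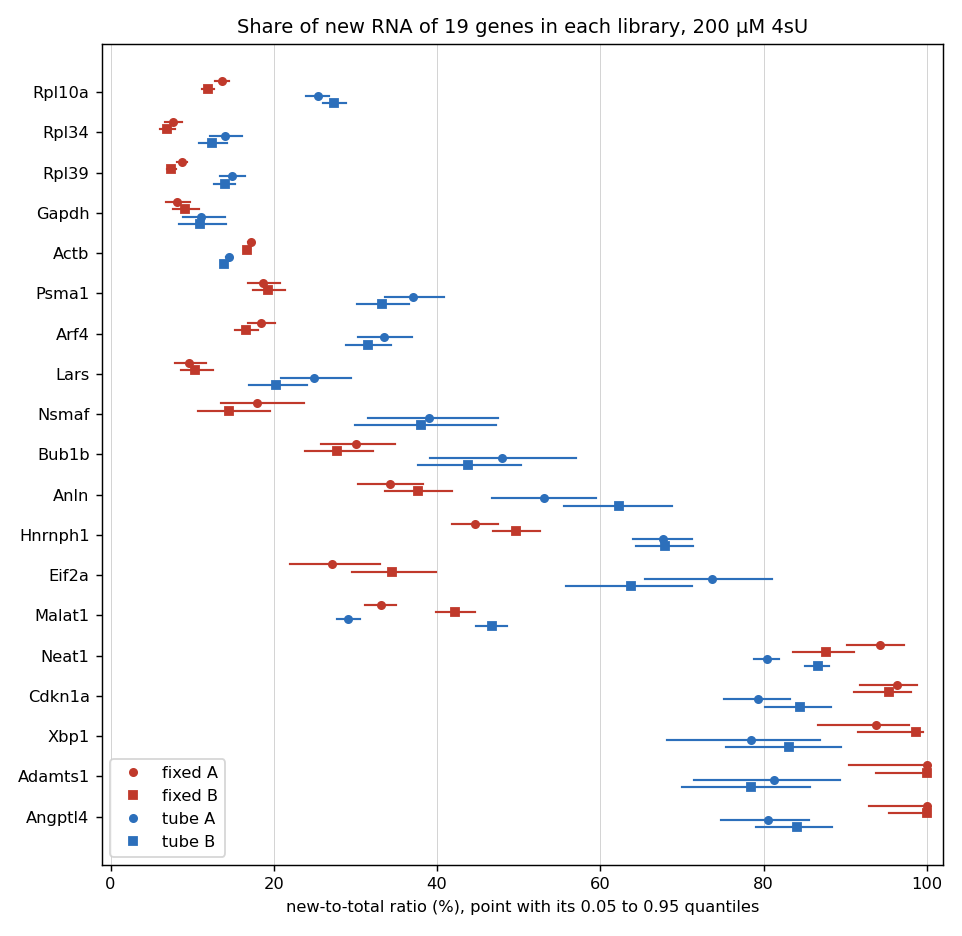
New-to-total ratio (x axis, %) of 19 genes in fixed libraries A and B (red) and tube libraries A and B (blue). Points are the deposited maximum a posteriori values and lines run between the 0.05 and 0.95 quantiles. From Psma1 to Eif2a the fixed values lie below the tube values, and from Cdkn1a to Angptl4 above them.

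The ratio and the count together split each gene's RNA into new RNA (count times ratio) and old RNA (the remainder), both given here as CPM of the scaled library totals. New RNA fell in 610 of 6004 genes (10.2%) and rose in 107 (1.78%), with a median log2 difference of −0.20 (limma on log2 CPM with a prior count of 2 and BH adjustment at 0.05). Old RNA was called in 1675 genes (27.9%), of which it rose in 1035 (17.2%) and fell in 640 (10.7%), with a median of 0.04. Scaling to library totals alone moved these medians to −0.32 for new and −0.07 for old RNA, and then 45 genes rose and 707 fell in new RNA, and 828 rose and 839 fell in old RNA. New and old RNA both rose in 79 genes and both fell in 250. Old RNA rose with no call for new RNA in 949 genes, and new RNA fell with no call for old RNA in 353. In 7 genes new RNA fell while old RNA rose, and in 0 the reverse was called by both limma tests. Total RNA, tested by edgeR's quasi-likelihood test with BH adjustment, was called in 3580 of 11080 genes (32.3%), with 1613 rises (14.6%) and 1967 falls (17.8%). In bulk samples, fewer molecules per cell and fewer cells contributing them cannot be told apart.

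Eif2a was among the 7 with opposite calls (chosen here for its ratio, above). Its new RNA fell by 0.99 on the log2 scale (SE 0.28; limma BH-adjusted p = 0.0398), its old RNA rose by 1.30 (SE 0.26; limma BH-adjusted p = 0.00744), and its total RNA had a log2 difference of 0.17 (edgeR BH-adjusted p = 0.475). Rpl10a followed the same pattern. It had 206 and 207 CPM of new RNA in fixed cells and 305 and 305 CPM in tubes, and 1304 and 1525 CPM of old RNA against 896 and 808 CPM. Its new RNA fell by 0.56 (SE 0.16; limma BH-adjusted p = 0.0431) and its old RNA rose by 0.73 (SE 0.15; limma BH-adjusted p = 0.00901). Rpl39 rose in both, with 140 and 140 CPM of new RNA in fixed cells and 86.1 and 89.2 CPM in tubes, and 1467 and 1754 CPM of old RNA against 492 and 550 CPM. Cytosolic ribosomal protein genes as a list had old RNA risen in 44 of 83 and fallen in 0, against 17.2% and 10.7% of all genes. Their new RNA rose in 15 and fell in 1, against 1.78% and 10.2% of all genes. Old RNA likewise rose in 46 of 75 oxidative phosphorylation genes, 24 of 34 proteasome genes and 27 of 68 mitochondrial ribosomal protein genes, and fell in 0 of each by limma. In new RNA these 3 lists held 5, 3 and 3 rises and 0, 0 and 1 falls, to be read against the same 1.78% and 10.2%. The median log2 difference of old RNA was 0.73 for cytosolic ribosomal proteins and 0.59 for oxidative phosphorylation, and stayed at 0.61 and 0.47 when scaled to library totals.

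Among the largest rises of new RNA were Gstm5, a glutathione transferase, and 3 mitochondrial protein genes, Ndufb6 of complex I, Mrpl27 of the mitochondrial ribosome and Sdhc of complex II. Mrpl27 had 30.6 and 25.8 CPM of new RNA in fixed cells against 8.54 and 8.30 CPM in tubes (log2 difference 1.70, SE 0.37; limma BH-adjusted p = 0.0124). Its ratio was 28.2% and 26.9% in fixed cells and 23.8% and 22.3% in tubes, and its old RNA rose as well, with 77.8 and 70.3 CPM in fixed cells and 27.4 and 28.9 CPM in tubes. Gstm5 and Sdhc were no longer called when scaled to library totals. With each of the 4 libraries at 200 µM left out in turn, the calls of Gstm5, Mrpl27 and Sdhc were lost every time, and that of Ndufb6 every time except without tube library A. The log2 differences of these 4 genes remained positive throughout.

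Of the 5 nuclear long noncoding RNAs, 3 fell in both new and old RNA. Over all 6004 genes new RNA fell in 10.2%, old RNA in 10.7% and both in 250 genes. The list had a median length of 6983 bases, and new RNA fell in 264 of the 1201 longest genes. The part of length in this count was not tested. Neat1, the scaffold of paraspeckles in the nucleus (chr19:5824708-5845478 on GRCm38, minus strand), had 208 and 191 CPM of new RNA in fixed cells and 1308 and 1363 CPM in tubes, and 12.7 and 27 CPM of old RNA against 319 and 211 CPM. Its new RNA fell by 2.74 on the log2 scale (SE 0.16; limma BH-adjusted p = 2.24e-06) and its old RNA fell by 3.78 (SE 0.36; limma BH-adjusted p = 0.000748). Its ratio was 94.2% and 87.6% in fixed cells and 80.4% and 86.6% in tubes. Malat1, an abundant RNA of nuclear speckles (chr19:5795690-5802672 on GRCm38, minus strand), had 208 and 217 CPM of new RNA in fixed cells against 478 and 435 CPM in tubes. New RNA of Malat1 fell by 1.10 (SE 0.15; limma BH-adjusted p = 0.00219), and its old RNA by 1.10 (SE 0.35; limma BH-adjusted p = 0.0430, and not called with a prior count of 0.5 or without any one of tube A, fixed A or fixed B). Its ratio of 33.1% and 42.2% in fixed cells and 29.1% and 46.7% in tubes overlapped fully. Meg3, an imprinted noncoding RNA, also fell in both, by 1.16 for new and 1.32 for old RNA. Old RNA also fell in 1 further gene of the list, Mirg, whose ratio was at 99.8% and 100% in fixed cells against 86.4% and 92.4% in tubes. Without 4sU the total RNA of Malat1 also differed, with a log2 difference of fixed over tube of −2.03, and that of Neat1 of −2.65 (edgeR), so these gaps were present in unlabelled cells.

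Sec61a2, a subunit of the protein channel of the endoplasmic reticulum, Spaca6, a sperm membrane protein, and Tmem245, a transmembrane protein, followed Neat1 among the falls of new RNA. Sec61a2 had 10.3 and 9.04 CPM of new RNA in fixed cells against 34.4 and 44.5 CPM in tubes, and 12 and 13.4 CPM of old RNA against 16.1 and 16.6 CPM. Its new RNA fell by 1.98 (SE 0.27; limma BH-adjusted p = 0.00219), while old RNA had a log2 difference of −0.36 (SE 0.30; limma BH-adjusted p = 0.399). These 4 falls of new RNA passed without each one of the 4 libraries at 200 µM. Extracellular matrix and secreted protein genes, the collagens and their partners, had new RNA fallen in 12 of 38 and risen in 0, old RNA fallen in 20 and risen in 0, and a ratio that lay below in both fixed libraries in 10 and above in 8. Over all genes new RNA fell in 10.2% and rose in 1.78%, old RNA fell in 10.7% and rose in 17.2%, and the ratio lay below in 41.1% and above in 13.1%. Their ratio medians, 21.4% and 23.8% in fixed cells and 23.4% and 23.9% in tubes, overlapped. Fbn1, the microfibril protein fibrillin-1, was named by its small p for the ratio. It had 39.4% and 37.4% in fixed cells against 20.2% and 23.8% in tubes, and its old RNA fell by 1.00 (SE 0.21; limma BH-adjusted p = 0.00926). Among 85 solute carrier genes, membrane transporters, new RNA fell in 13 and rose in 0, and old RNA fell in 16 and rose in 5, shares to be read against the same values over all genes.

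The largest falls of old RNA were those of genes whose ratio was 1 in fixed cells. Sox9, a transcription factor, Mat2a, which makes S-adenosylmethionine, and Midn had 0 CPM of old RNA in both fixed libraries. In tubes Mat2a had 59.2 and 43.4 CPM and Sox9 118 and 98.5 CPM of old RNA. A fold against these zeros rests on the prior count, so none is given. Of the 640 genes with fallen old RNA, 101 had a ratio of 1 in at least 1 of the 4 libraries and 59 of the called genes had 0 old RNA in both fixed libraries. The largest rises of old RNA were the mirror image, in genes near a ratio of 1 in tubes. Plaur, the urokinase receptor, had 7.11 and 2.58 CPM of old RNA in fixed cells and 0 and 0.0788 CPM in tubes. Snrnp48, Aspm and Wdhd1 also had at most 3.65 CPM in either tube library. Old RNA of Plaur was called with each of the 4 libraries left out, while the calls of the other 3 genes were each lost in 3 of 4 cases.

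The deposited gene length moved with these differences. The genes were split into 5 classes of equal size by deposited length. In the class of the shortest (341 to 1923 bases), the median log2 difference of fixed over tube was 0.09 for new RNA and 0.41 for old RNA. In the class of the longest (5348 to 123179 bases) it was −0.50 for new RNA and −0.34 for old RNA. New RNA rose in 63 and fell in 34 of the shortest genes, against 2 and 264 of the longest. Old RNA rose in 444 and fell in 44 of the shortest, against 52 and 243 of the longest. Total RNA had medians of 0.34 and −0.40 in these classes at 200 µM, and 0.47 and −0.42 without 4sU. Spearman's rho with length across genes was −0.48 for total RNA at 200 µM, −0.524 for total RNA without 4sU, −0.402 for new RNA, −0.378 for old RNA and 0.117 for the logit difference of the ratio. The median difference of the ratio was −3.35 points in the shortest and −1.85 points in the longest class. The per-gene log2 differences of total RNA at 200 µM and without 4sU, which share no library, had a rho of 0.848. The ribosomal protein list had a median length of 1047 bases and the matrix list of 5456 bases, and the part of length in their differences was not tested.

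**Figure D5:**
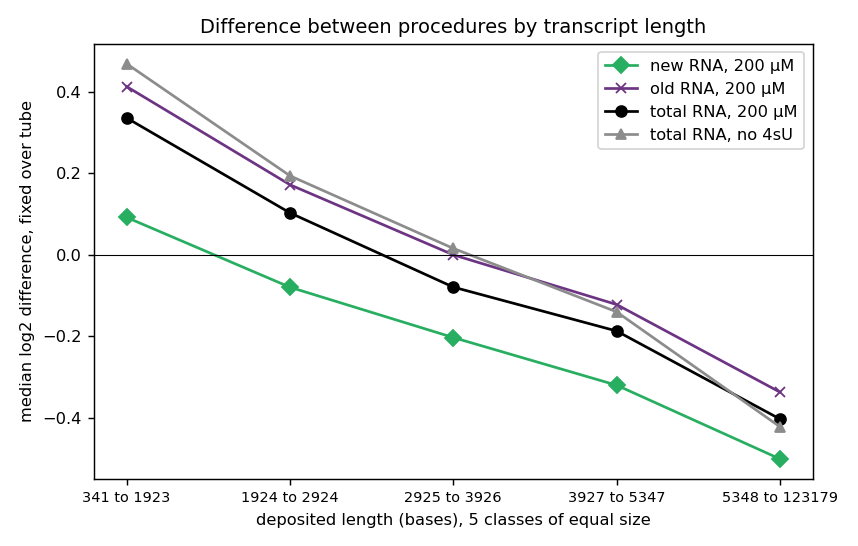
Median log2 difference of fixed cells over tubes (y axis) in 5 classes of genes by deposited gene length (x axis, bases) for new, old and total RNA at 200 µM 4sU and total RNA without 4sU. All 4 lines run downward, from 0.41 to −0.34 for old RNA and from 0.09 to −0.50 for new RNA.

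At the count minimum, Tmx4 (lowest count 100) and Pbxip1 (lowest count 100) were the last genes kept. Spty2d1 and Pdcd10, with lowest counts of 99.8 and 99.5, were the first left out. The ratios of Tmx4 were 45.9% and 63.8% in fixed cells and 55.7% and 63.1% in tubes, those of Pdcd10 56.8% and 69.4% against 57.8% and 74.7%. In both genes the groups overlapped.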

How the data were processed

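Per the file headers, the deposited table gives an expected count of each gene (17.9% to 20.3% of a library's values were not whole) and its new-to-total ratio. The ratio is a fraction, deposited as maximum a posteriori value, mean and 2 quantiles. The scores alpha and beta, also deposited, parameterise its beta posterior. Tools named in the submitters' processing notes are STAR 2.7.10b, Bowtie2 2.3.0 and cutadapt, with no roles. The sources used here do not give the genome build, annotation, strand use or the tool behind the ratio. Coordinates are GENCODE M21 (GRCm38) by gene ID (5998 of 6004 matched).

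Ratios, held within 0.001 to 0.999, were tested on the logit scale with limma 3.58.1 (trend) in 1 fit of 8 labelled libraries. New and old RNA were tested with limma on log2 CPM of TMM-scaled totals with a prior count of 2, and rounded counts with edgeR 4.0.16 (R 4.3.3) over 12 libraries and 11080 genes. BH adjustment ran over all genes tested, and all tests are two-sided. Scripts were tested on simulated data. Members and lists were chosen with earlier results of these data known. Named genes are the 10 highest and 10 lowest ratio differences (by p, since none passed), the 4 largest rises and falls of new and of old RNA whose counts averaged 200 or more and whose groups did not overlap, 3 genes per list by p, Gapdh, Actb, Malat1, Myc and Fos. Meg3 was chosen after its values were seen. Intervals cover counting and model error of a library, not the spread between samples. Of the genes that this rule takes, 1 is not reported here.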

Additional observations from a re-analysis of the deposited data

How the results depend on the processing

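The ratio test called 0 genes as reported. It called 4 with libraries centred on their medians, 16 with a count minimum of 200, 26 with none, 34 from the 4 libraries at 200 µM alone, 373 with posterior precision weights, 155 without fixed 800 µM library A (chosen after seeing the data) and 0 to 5 with each of the 4 libraries left out. It stayed at 0 with the posterior mean, a count minimum of 50, ratios held within 0.01 to 0.99, percentage points and, both chosen after seeing the data, quantile normalization and genes with ratios within 0.02 to 0.98. Calls of new RNA, 717 as reported, were 1524 from the 4 libraries alone, 1706 without fixed 800 µM library A and 66 to 132 with each library left out. Those of old RNA, 1675 as reported, were 515 to 942 with each library left out and 2071 without fixed 800 µM library A. Those of total RNA, 3580 as reported, were 2092 to 2621 and 4109 in the same cases. A group left with 1 library is assumed to vary like the others. The interaction stayed at 0, or 4 without fixed 800 µM library B. Intervals were apart in 347 genes, in place of 529, with the mean ± 2 posterior SD. The difference in median logit (−0.247) ran from −0.299 to −0.194 with a library left out. A and B share only a letter: deviations of same-lettered libraries correlated at 0.0112 for the ratio and 0.0823 for log counts. With the letter as a replicate block the ratio test called 0, new RNA 672, old RNA 1576, total RNA 3482 and the interaction 0, and the median difference was −0.18 for A and −0.314 for B. The ratio is given without a background from unlabelled cells, and with 2 libraries a group the spread rests on 4 residual degrees of freedom.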
